A study of Mus musculus with 25 samples.

Results

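Fc receptors are the proteins by which innate immune cells bind antibody, and 10 of their genes and partners were followed here through 2 white fat depots of the mouse: the adaptors Fcer1g and Tyrobp, the activating Fcγ receptors Fcgr1, Fcgr3 and Fcgr4, the inhibitory receptor Fcgr2b, the kinase Syk, and the C-type lectin receptors Clec7a, Clec4n and Clec4d. The 10 genes were listed by symbol out of 54752 genes in the count files, and the list was chosen by readers who knew how these genes behaved in the groups compared below. The levels and changes are therefore a description of these libraries, calls included, and the counts of called genes are no independent evidence of a direction. RNA-seq of bulk tissue was made from epididymal (eWAT, visceral) and inguinal (iWAT, subcutaneous) white adipose tissue, 25 libraries in 6 groups. Male C57BL/6NJ wild type mice received normal diet (ND-WT) or a high-fat diet holding 60% of its calories as fat (HFD-WT), and Acod1-/- mice, which lack the enzyme that makes itaconate in every cell from birth, received the same high-fat diet (HFD-Acod1-/-). Mice were 5 weeks old when the high-fat diet began, and it lasted 16 weeks, except that iWAT HFD-Acod1-/- libraries 2 and 3 carry the labels 17 and 18 weeks. Libraries are numbered within their group as in the labels. There were 4 ND-WT, 5 HFD-WT and 5 HFD-Acod1-/- libraries of eWAT and 3, 5 and 3 of iWAT, and Acod1-/- mice on normal diet were not analysed here.

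Receptors of this family have almost no signalling domain of their own. The activating Fcγ receptors sit in the membrane with the Fc receptor γ chain, the product of Fcer1g, and many other myeloid receptors use the related adaptor DAP12, the product of Tyrobp. Both adaptors carry an immunoreceptor tyrosine-based activation motif (ITAM) that is phosphorylated on receptor clustering and then docks the tyrosine kinase Syk, which starts calcium release, CARD9 signalling and phagocytosis. FcγRIIb, encoded by Fcgr2b, carries the opposite, inhibitory motif, and it is the Fcγ receptor of B cells as well as a brake on myeloid cells. In fat these genes are known mainly from macrophages, which gather around dying adipocytes in obesity.

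Between 31405063 and 52335623 reads per library were counted on genes. Acod1 itself had between 0 and 9 reads in every library, wild type ones included, so that its level could not be used to check the genotype labels. Libraries fell into 2 series by the leading digits of the numbers in the file headers. What these numbers stand for is not stated in the sources used here. The series are called lower-numbered and higher-numbered below. All 7 ND-WT libraries were in the higher-numbered series and 8 of the 10 HFD-WT libraries in the lower-numbered one. Diet and series could therefore hardly be told apart. Adipocyte markers were abundant in every library (17488 to 46395 CPM, the reads of a gene relative to library size, summed over 6 genes). The 3 iWAT ND-WT libraries stood apart from all others by transcripts of a lymph node. In them 6 B cell markers summed to 596 to 886 CPM, 6 T cell markers to 214 to 348 CPM and 4 lymph node stroma markers to 149 to 284 CPM, against 3.56 to 89.8, 3.9998 to 56.4 and 1.401 to 12.8 CPM in iWAT HFD-WT. Every iWAT comparison with ND-WT below carries that difference. Epithelial markers reached 311 CPM in eWAT ND-WT library 2 and 529 CPM in iWAT HFD-Acod1-/- library 2.

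By the GENCODE vM21 annotation (GRCm38), 4 of the genes lie on chromosome 1 within a short stretch: Fcgr2b at chr1:170958617-170976547 (minus strand), Fcgr4 at chr1:171018920-171029761 (plus strand), Fcgr3 at chr1:171051174-171064935 (minus strand) and Fcer1g at chr1:171229572-171234365 (minus strand). Clec4n at chr6:123229843-123247021 (plus strand), Clec4d at chr6:123262111-123275265 (plus strand) and Clec7a at chr6:129461591-129472779 (minus strand) share chromosome 6. Fcgr1 is at chr3:96282909-96293969 (minus strand), Tyrobp at chr7:30413760-30417585 (plus strand) and Syk at chr13:52583173-52648792 (plus strand). Fcgr3 and Fcgr2b are near copies in their outer domains: 9.58% of the 50-base windows in Fcgr3 transcripts occur in Fcgr2b too, and 6.95% of those in Fcgr2b occur in other genes, so that a small part of their reads may have been split or dropped. No other gene of the 10 shared as much as 1% of its windows. Clec7a is annotated as a polymorphic pseudogene in this reference.

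The start regions of the most changeable receptors are shown because PU.1, the product of Spi1 and a master regulator of myeloid genes, is known to bind purine-rich sites there. The core GAGGAA was searched on both strands and is in capitals below, as TTCCTC where it lies on the opposite strand. The window searched ran from 250 bases before to 50 after each listed start. Of the 8 members that have a RefSeq entry in the table used (GRCm38.p6), 6 had a match at any listed start. Counted by window, 8 of the members' 11 windows (72.7%) and 28.3% of all 32851 windows had one. Fcgr3 and Clec7a each enter that count with 2 overlapping windows that hold the same core. A share by gene was not taken over all genes. The 100 bases before the start, written 5′ to 3′, read:
Fcgr1 (chr3:96293970-96294069, minus strand): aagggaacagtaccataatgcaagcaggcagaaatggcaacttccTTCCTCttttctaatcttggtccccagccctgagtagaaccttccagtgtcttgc
Fcgr3 (chr1:171059404-171059503, minus strand): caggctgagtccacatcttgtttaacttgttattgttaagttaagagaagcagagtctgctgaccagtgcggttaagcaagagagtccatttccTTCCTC
Fcgr4 (chr1:171018826-171018925, plus strand): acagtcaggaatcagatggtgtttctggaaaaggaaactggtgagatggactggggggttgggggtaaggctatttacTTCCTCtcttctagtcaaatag
Clec7a (chr6:129472780-129472879, minus strand): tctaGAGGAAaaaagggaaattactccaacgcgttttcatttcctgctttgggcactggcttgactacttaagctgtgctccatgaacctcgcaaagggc
Counted from the start used above, the core began at position -55 in Fcgr1, -6 in Fcgr3, -22 in Fcgr4 and -96 in Clec7a. Fcgr3 and Clec7a have 2 listed starts each, and from the other start the same core began at -15 and -90. The Fcgr3 bases shown lie inside its GENCODE span given above, so both of its listed starts are within the annotated gene. Clec4d held it 3 times, beginning at -240 and at 7 and 39 bases past the start, and Syk once, at -9 from 1 of its 2 listed starts. Fcgr2b and Fcer1g had no match. The AP-1 site TGANTCA was in none of the 8, and in 7.81% of all windows. A match of letters is a description and does not show a bound site.

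High-fat feeding of wild type mice raised 9 of the 10 genes in eWAT, where 24.8% of the 14936 genes tested were called higher, and loss of Acod1 under the same diet lowered the same 9, where 10.8% of all genes were called lower. A gene is called here when its p-value from edgeR's quasi-likelihood test, adjusted over all genes by Benjamini-Hochberg, is under 0.1. The median of the 10 fitted log2 fold changes was 2.48 for the diet and -2.31 for the genotype, beside medians of -0.04 and 0.04 over all genes tested. Clec4n was the exception in both. For 7 genes every HFD-WT library was above every ND-WT library, and for 6 genes every HFD-Acod1-/- library was below every HFD-WT library. Such separation was not counted over all genes, here or below, so it describes the 10 genes only.

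**Figure D1:**
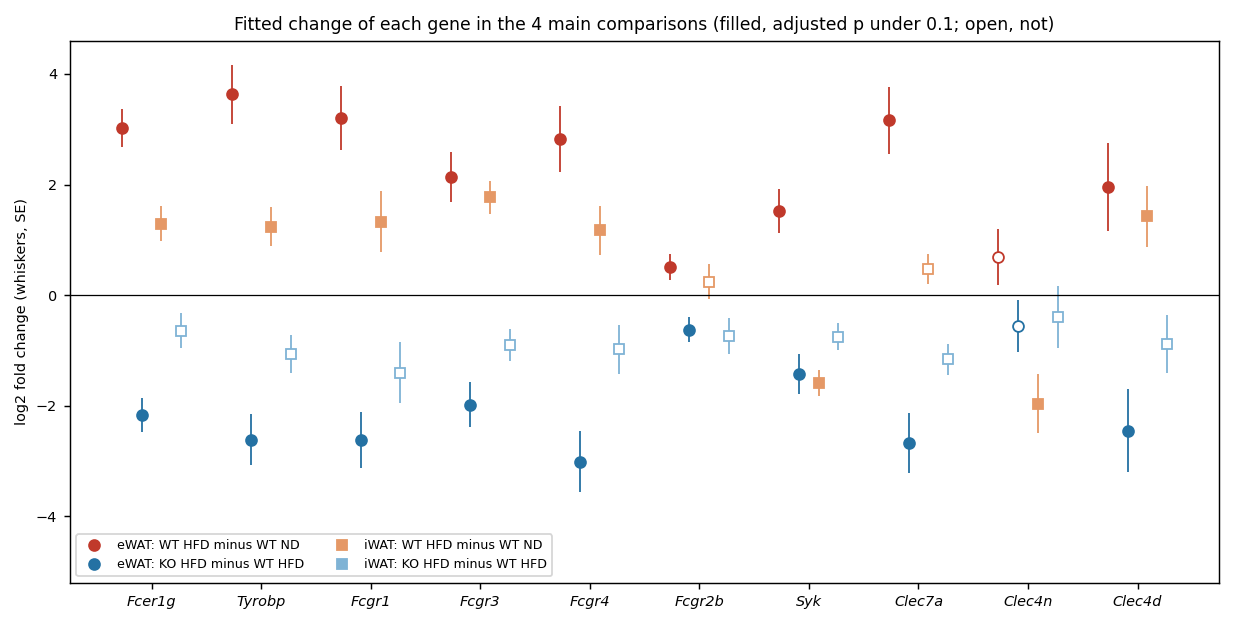
Fitted log2 fold change of each of the 10 genes (vertical axis, whiskers are 1 SE) in 4 comparisons, where KO stands for Acod1-/-; filled symbols passed an adjusted p of 0.1 and open ones did not. In eWAT the diet changes lie above 0, from 0.51 for Fcgr2b to 3.63 for Tyrobp, and the genotype changes below it, from -3.01 for Fcgr4 to -0.55 for Clec4n, while Syk and Clec4n alone lie below 0 for the iWAT diet comparison.

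The 2 adaptors were the most abundant of the set per length, and with the diet Tyrobp was the most changed. Tyrobp, which encodes DAP12, had 33.9, 17.8, 18.4 and 13.4 CPM in the 4 eWAT ND-WT libraries. It had 445, 248, 161, 309 and 129 CPM in the 5 eWAT HFD-WT libraries and 38.04, 22.6, 21.1, 32.7 and 96.9 CPM in the 5 eWAT HFD-Acod1-/- libraries. The HFD-WT libraries were all above both other groups, and HFD-Acod1-/- library 5 stood well above the other 4 of its group. The fitted log2 fold change of Tyrobp was 3.63 (SE 0.53) for the diet, a 12.4-fold rise, and -2.61 (SE 0.46) for the genotype. Fcer1g, which encodes the common γ chain, had 21.7, 13.4, 18.7 and 14.7 CPM in ND-WT. Its level was 241, 110.3, 92.7, 166 and 86.98 CPM in HFD-WT and 31.2, 22.98, 21.02, 31.9 and 47.7 CPM in HFD-Acod1-/-. Again no HFD-WT library overlapped either other group, with log2 fold changes of 3.02 (SE 0.34) and -2.17 (SE 0.30). Per length, the scale on which genes can be compared with each other, the eWAT HFD-WT level was 387 ± 189 FPKM for Tyrobp and 159 ± 74.1 FPKM for Fcer1g (SD, n = 5), the 2 highest of the set.

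The activating Fcγ receptors moved with their adaptor. Fcgr1 encodes FcγRI, the high-affinity receptor for IgG. It had 4.82, 3.25, 2.37 and 2.41 CPM in eWAT ND-WT, 47.6, 34.5, 11.4, 43.5 and 11.02 CPM in HFD-WT and 3.88, 2.22, 2.53, 5.18 and 10.3 CPM in HFD-Acod1-/-. The lowest HFD-WT library was only just above the highest HFD-Acod1-/- library, and the log2 fold changes were 3.20 (SE 0.57) and -2.61 (SE 0.51). Fcgr4 encodes FcγRIV, a receptor of intermediate affinity that prefers IgG2 subclasses, and was the least abundant of the 4 by CPM. Its levels were 2.33, 1.42, 1.13 and 3.56 CPM in ND-WT, 25.1, 15.1, 6.64, 23.03 and 5.21 CPM in HFD-WT and 1.62, 1.19, 0.7897, 1.603 and 4.04 CPM in HFD-Acod1-/-. HFD-WT overlapped neither group, and the genotype change of -3.01 (SE 0.55) was the largest among the 10 genes. Fcgr3, the low-affinity FcγRIII, started from a higher level, with 45.2, 24.7, 30.1 and 32.6 CPM in ND-WT. It reached 235, 151, 79.6, 196 and 65.3 CPM in HFD-WT and had 33.1, 20.9, 17.8, 40.7 and 72.2 CPM in HFD-Acod1-/-. HFD-Acod1-/- library 5 was above the lowest HFD-WT library, and the log2 fold changes were 2.13 (SE 0.45) and -1.98 (SE 0.41).

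Fcgr2b, the inhibitory receptor, changed far less. It had 44.7, 44.7, 39.9 and 35.7 CPM in ND-WT, 80.1, 48.5, 55.04, 70.8 and 38.3 CPM in HFD-WT and 42.2, 27.995, 27.2, 35.4 and 57.5 CPM in HFD-Acod1-/-. Its groups overlapped in both comparisons. The log2 fold changes were 0.51 (SE 0.24) for the diet and -0.62 (SE 0.22) for the genotype, and the adjusted p-values of edgeR's quasi-likelihood test were 0.0989 and 0.0834, so that many alternatives, the removal of single libraries among them, put Fcgr2b on the other side of the threshold. Without eWAT HFD-WT library 1, for example, its changes were 0.36 and -0.49, neither called.

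The make-up of the Fcγ receptor transcripts differed between groups. Of the summed FPKM of the 4 receptor genes, Fcgr2b held 25.1% ± 5.14 in eWAT ND-WT (SD, n = 4), 9.82% ± 3.53 in HFD-WT (SD, n = 5) and 22.9% ± 4.93 in HFD-Acod1-/- (SD, n = 5). Fcgr3 was the major transcript throughout, at 64.996% ± 4.66, 71.3% ± 0.834 and 66.8% ± 4.13. Fcgr1 held 4.22% ± 0.981, 9.23% ± 1.76 and 5.703% ± 0.854, and Fcgr4 5.73% ± 2.83, 9.603% ± 1.55 and 4.53% ± 0.733. As a ratio, the 3 activating receptors together gave 3.86, 2.15, 2.78 and 3.66 FPKM per FPKM of Fcgr2b in the ND-WT libraries and 12.6, 13.5, 5.84, 12.1 and 6.96 in the HFD-WT libraries. In HFD-Acod1-/- the ratios were 3.002, 2.87, 2.52, 4.38 and 4.91. All 5 HFD-WT ratios were above all 9 of the other eWAT libraries, while those of ND-WT and HFD-Acod1-/- overlapped. In iWAT the ratio was 1.47 ± 0.143 in ND-WT (SD, n = 3), 3.95 ± 0.9105 in HFD-WT (SD, n = 5) and 3.61 ± 0.858 in HFD-Acod1-/- (SD, n = 3). Fcgr2b averaged 5.64 FPKM in iWAT ND-WT and 6.53 FPKM in iWAT HFD-WT, and Fcgr3 6.30 and 20.96 FPKM. The iWAT ND-WT libraries also held the B cell markers given above, whose part in the ratio was not tested. No test was run on shares or ratios.

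**Figure D2:**
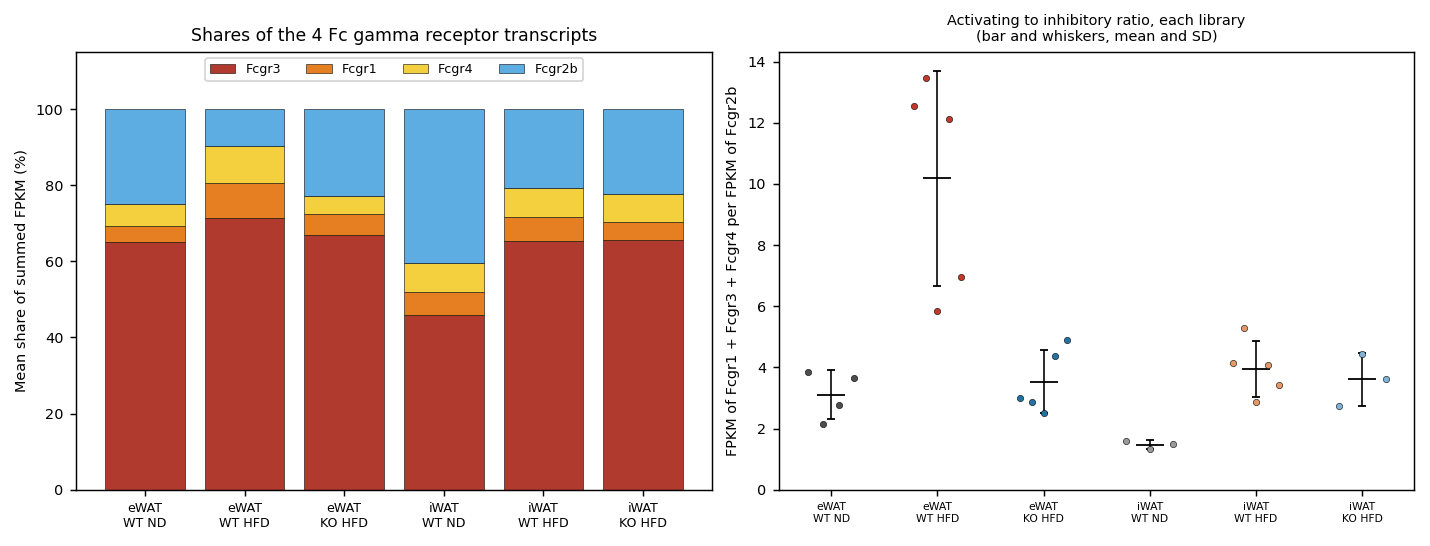
Left, mean share (%) of each of the 4 Fcγ receptor genes in their summed FPKM, by group; right, summed FPKM of Fcgr1, Fcgr3 and Fcgr4 per FPKM of Fcgr2b in each library (points) with group mean and SD, where KO stands for Acod1-/-. The 5 eWAT HFD-WT libraries sit between 5.84 and 13.5, above the other eWAT libraries.

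Syk, the kinase that binds the phosphorylated adaptors, had 47.1, 24.6, 28.1 and 25.02 CPM in eWAT ND-WT. It had 144, 99.8, 59.6, 94.6 and 50.05 CPM in HFD-WT and 35.8, 15.8, 20.5, 32.97 and 61.6 CPM in HFD-Acod1-/-. HFD-WT was above ND-WT in every library, although ND-WT library 1 came close to the lowest of them, and HFD-WT overlapped HFD-Acod1-/- through library 5 of the latter. The log2 fold changes of 1.52 (SE 0.40) and -1.42 (SE 0.37) were smaller than those of either adaptor.

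The 3 C-type lectin receptors differed from each other. Clec7a encodes Dectin-1, the β-glucan receptor, which signals through Syk by a motif in its own tail. It had 16.2, 8.02, 6.78 and 4.36 CPM in ND-WT, 132, 101, 44.9, 90.9 and 28.3 CPM in HFD-WT and 15.2, 4.44, 8.96, 6.52 and 26.7 CPM in HFD-Acod1-/-. HFD-WT overlapped neither group, and the log2 fold changes were 3.16 (SE 0.60) and -2.68 (SE 0.54). Clec4d encodes MCL, which pairs with the Fc receptor γ chain, and was low. Its levels were 6.57, 1.56, 1.49 and 1.19 CPM in ND-WT, 20.5, 8.68, 4.89, 13.1 and 5.19 CPM in HFD-WT and 1.22, 0.345, 0.354, 3.21 and 4.37 CPM in HFD-Acod1-/-. ND-WT library 1 lay within the HFD-WT range, and HFD-WT was above HFD-Acod1-/- throughout, with log2 fold changes of 1.95 (SE 0.80) and -2.45 (SE 0.75). The diet call of Clec4d was lost without ND-WT library 2, 3 or 4 or HFD-WT library 1 or 4, and the genotype call without HFD-WT library 1 or HFD-Acod1-/- library 1. Clec4n encodes Dectin-2, the α-mannan receptor, which also uses the γ chain. It had only 1.74, 1.62, 0.756 and 2.22 CPM in ND-WT, 1.63, 2.29, 2.35, 4.39 and 2.15 CPM in HFD-WT and 2.26, 0.345, 1.63, 1.55 and 2.91 CPM in HFD-Acod1-/-. The groups overlapped in both comparisons, and with log2 fold changes of 0.70 (SE 0.50) and -0.55 (SE 0.47) no difference could be detected (edgeR quasi-likelihood test, adjusted p = 0.276 and 0.466).

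**Figure D3:**
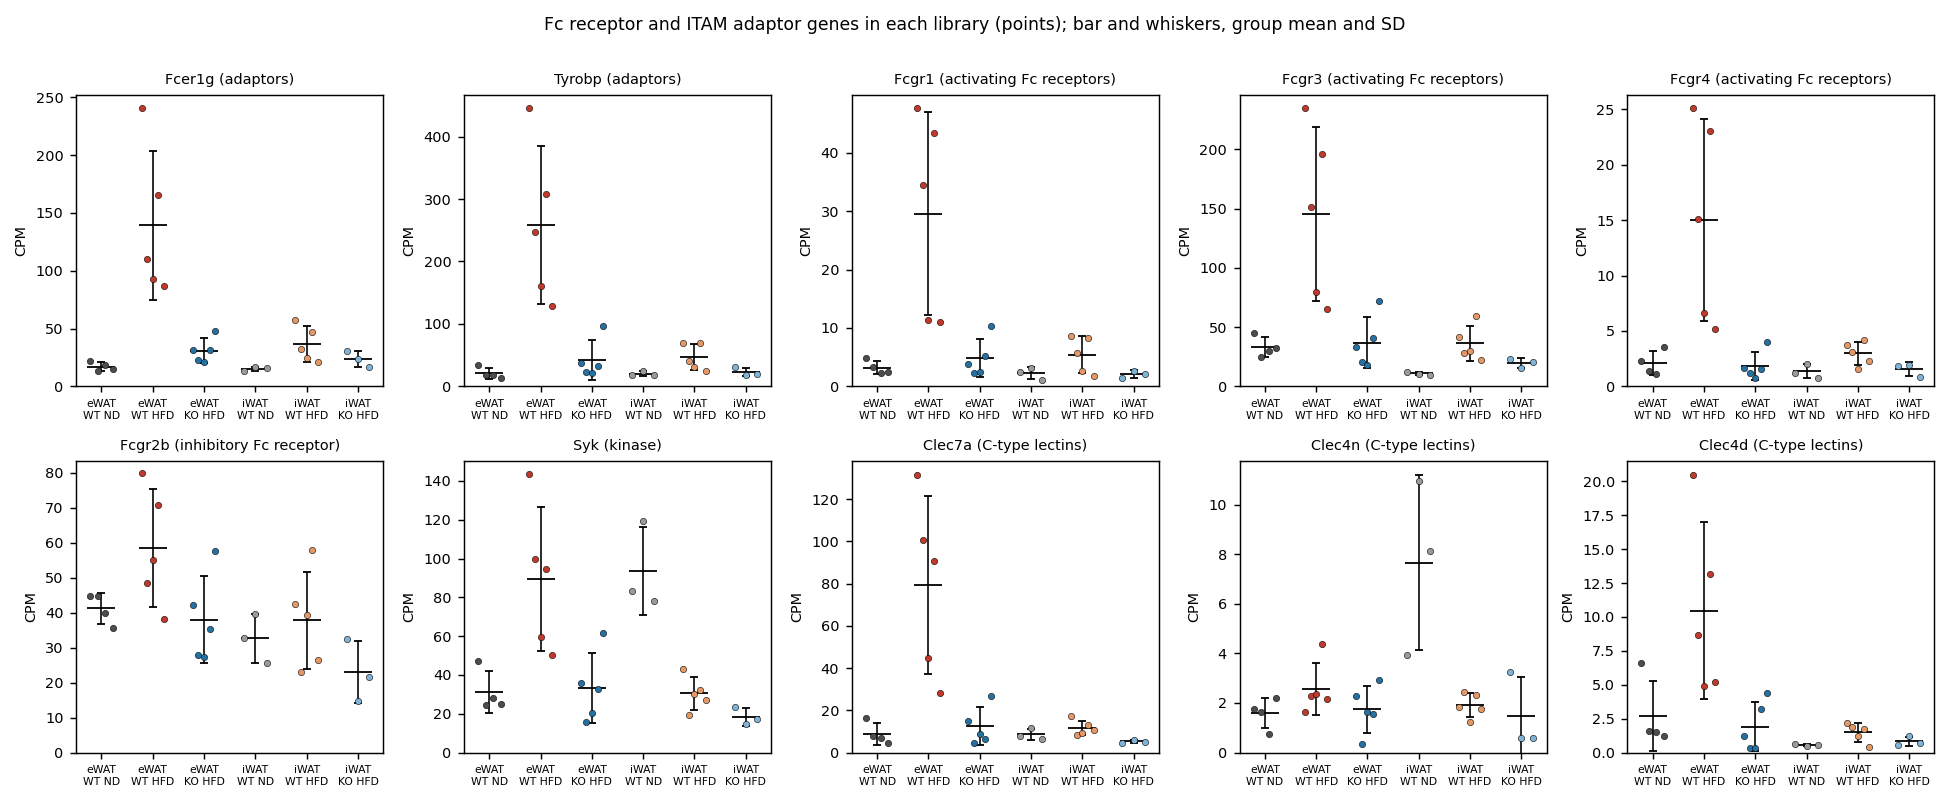
Level of each gene (CPM, linear axes from 0) in every library, with group mean and SD, where KO stands for Acod1-/-. For most genes the eWAT HFD-WT libraries are high and spread out, as with Tyrobp between 129 and 445 CPM, whereas Syk and Clec4n are high in iWAT ND-WT, at 77.9 to 119 and 3.91 to 10.9 CPM.

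The markers of macrophages moved with these genes. In bulk tissue, a change in how many cells of a type were present and a change in RNA per cell cannot be told apart. The sum of 12 macrophage markers was 687 to 1136 CPM in eWAT ND-WT, 1655 to 5420 CPM in HFD-WT and 600.2 to 1715 CPM in HFD-Acod1-/-, with none of the 12 at 0. Of the 12, 10 were called higher with the diet and 2, Mertk and Cd163, lower, and the same 10 were called lower in HFD-Acod1-/- with the other 2 not called. Adgre1 (F4/80) changed by 2.87 and -2.48, Cd68 by 3.89 and -2.70, and Csf1r by 1.66 and -1.67 on the log2 scale, a span that holds the changes of most of the 10 genes. Markers of other cells with Fc receptors moved in part. Mast cell markers (6 genes, none at 0) summed to 14.3 to 37.02 CPM in ND-WT, 22.3 to 191 in HFD-WT and 19.5 to 34.5 in HFD-Acod1-/-, and neutrophil markers (9 genes, none at 0) to 4.16 to 6.82, 30.7 to 56.3 and 5.39 to 42.5 CPM. Of the 6 mast cell markers 4 were called higher with the diet and 4 lower in HFD-Acod1-/-. Kit averaged 14.2, 12.3 and 14.9 CPM in the 3 groups and Hdc 5.56, 3.07 and 1.85 CPM. The neutrophil sum was mostly S100a8, at a mean of 2.05, 34.1 and 12.4 CPM, and the defining marker Ly6g averaged at most 0.0134 CPM in any eWAT group. Only 2 of the 9 neutrophil markers passed the filter, both called higher with the diet and 1 lower in HFD-Acod1-/-. Their part in the changes was not tested.

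Relative to the macrophage markers, the genes fell into different patterns, given here as description. Per 1000 CPM of the 12 markers, Tyrobp was 23.2 ± 5.62 CPM in eWAT ND-WT (SD, n = 4), 72.8 ± 7.604 in HFD-WT and 39.03 ± 10.1 in HFD-Acod1-/- (SD, n = 5 each). The lowest HFD-WT library was above every other eWAT library on that scale. Fcer1g was 19.5 ± 0.407, 40.7 ± 8.95 and 31.95 ± 4.08, Clec7a 9.73 ± 3.94, 21.6 ± 4.06 and 11.5 ± 4.06, and Fcgr1 3.67 ± 1.001, 7.79 ± 1.78 and 4.504 ± 1.13. Fcgr3 kept close to the summed markers, at 37.7 ± 4.702, 40.1 ± 2.56 and 35.4 ± 7.11, and Syk was somewhat lower in HFD-WT, at 35.04 ± 4.898, 26.1 ± 3.91 and 32.1 ± 3.96. Fcgr2b went the opposite way, from 48.5 ± 11.5 to 18.1 ± 5.54 and back to 39.4 ± 4.81, with no overlap between HFD-WT and either other group. The scale matters. Per CPM of Adgre1 alone, Tyrobp was 0.742 ± 0.124, 1.48 ± 0.483 and 1.35 ± 0.337, so that the 2 high-fat groups overlapped. On that scale Fcgr3 was 1.22 ± 0.157, 0.803 ± 0.193 and 1.29 ± 0.551, and Syk was 1.12 ± 0.066, 0.536 ± 0.208 and 1.16 ± 0.404, both lowest in HFD-WT. Fcgr1 (0.117 ± 0.0294, 0.1504 ± 0.0216 and 0.161 ± 0.0669) and Clec7a (0.306 ± 0.0946, 0.423 ± 0.0784 and 0.386 ± 0.121) overlapped between the high-fat groups. Fcer1g was 0.636 ± 0.109, 0.8497 ± 0.392 and 1.21 ± 0.528, highest in HFD-Acod1-/-, whereas Fcgr2b was still lowest in HFD-WT at 0.393 ± 0.226 against 1.59 ± 0.488 and 1.48 ± 0.607.

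**Figure D4:**
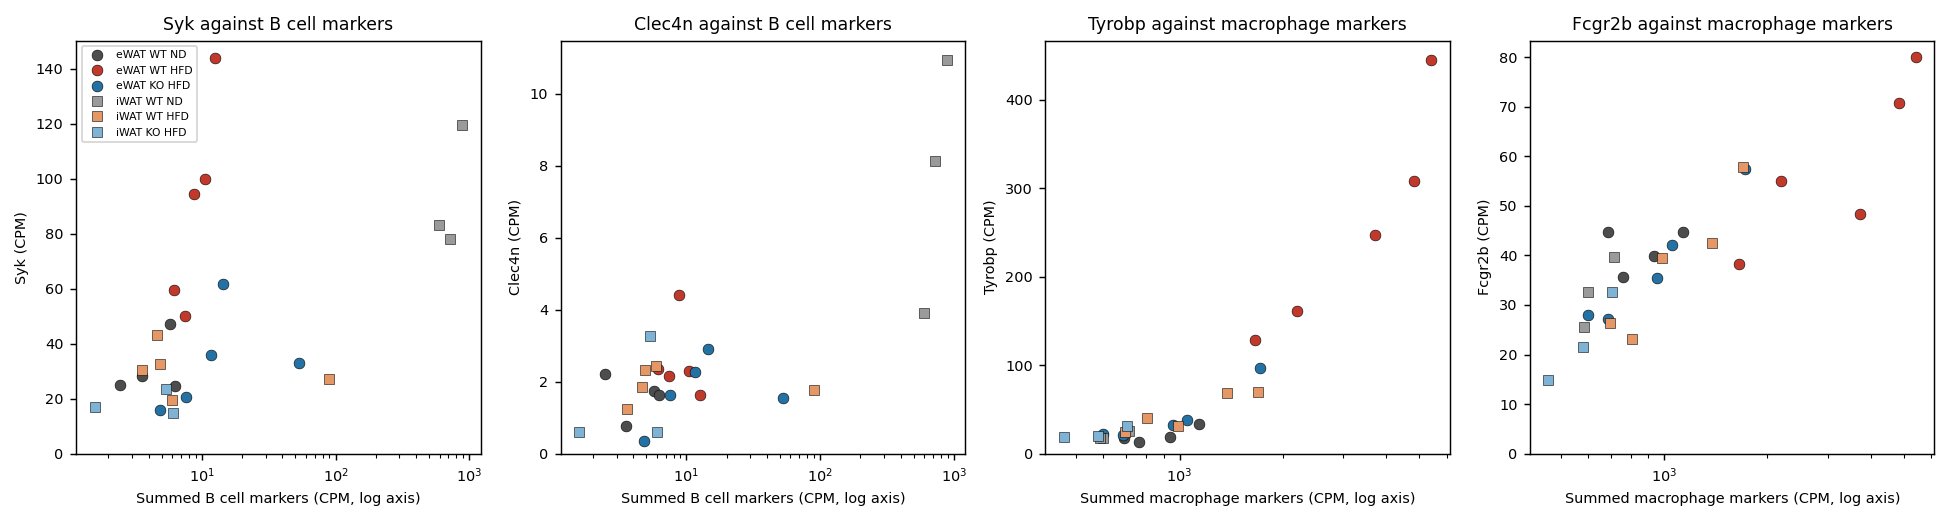
Level of Syk and Clec4n (CPM) against the summed B cell markers, and of Tyrobp and Fcgr2b against the summed macrophage markers (CPM, log axes), 1 point per library, where KO stands for Acod1-/-. The 3 iWAT ND-WT libraries lie apart at 596 to 886 CPM of B cell markers, and eWAT HFD-WT at 1655 to 5420 CPM of macrophage markers.

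The spread within eWAT HFD-WT was wide, and the same libraries were high for most genes. Libraries 1 and 4 were the 2 highest for Fcer1g, Tyrobp, Fcgr1, Fcgr3, Fcgr4, Fcgr2b and Clec4d, and libraries 3 and 5 the 2 lowest for those genes other than Fcgr2b. In HFD-Acod1-/- library 5 was highest for all 10 genes and carried 1715 CPM of macrophage markers, the most of its group. With HFD-WT library 1 and HFD-Acod1-/- library 5 both left out, a choice made after seeing the values, 9 of 10 genes were still called lower. Tyrobp changed by -2.90. Within the lower-numbered series alone, which held 4 libraries of each genotype, 9 of 10 were also called lower. Of all genes, 3433 and 3793 were called in either direction in these 2 fits, against 2976 in the main fit. For the diet no comparison within a series is balanced, since the lower-numbered series held no ND-WT library. When the series entered the fit as a term, it rested on the single library of each high-fat group from the higher-numbered series. In that fit 7 of 10 were called higher, Fcgr2b (0.64) and Clec4d (2.60) dropping out. Of all genes, 5139 were called in either direction, against 7730 in the main fit. In HFD-WT, the order of libraries by number for Fcer1g and for Fcgr1 was the same in eWAT and in iWAT (1, 4, 2, 3, 5, from high to low). For each of the other genes of the set the order differed between the depots. The labels do not say whether libraries of the same number come from 1 mouse.

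HFD-Acod1-/- was compared with ND-WT as well, 2 groups that differ by both diet and genotype and share libraries with the comparisons above. Only Fcer1g was called, with a log2 fold change of 0.85 (SE 0.31) (edgeR quasi-likelihood test, adjusted p = 0.0764), where 26.5% of all genes were called in either direction. Its groups overlapped by the lowest HFD-Acod1-/- library, and the call was lost without ND-WT library 2, 3 or 4 or HFD-Acod1-/- library 1, 4 or 5. A p-value that misses the threshold does not show that the other 9 were at their ND-WT level.

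In iWAT the diet changed the 10 genes in both directions: 6 were called higher, where 25.9% of all 14801 genes were, and 2 lower, where 24.2% were. The genes called higher were Fcgr3, Fcer1g, Tyrobp, Fcgr1, Clec4d and Fcgr4. Fcgr3 had 12.3, 10.8 and 9.71 CPM in the 3 ND-WT libraries, 41.7, 28.4, 29.8, 59.5 and 22.5 CPM in the 5 HFD-WT libraries and 23.2, 15.3 and 20.9 CPM in the 3 HFD-Acod1-/- libraries. ND-WT was below both other groups in every library, and the diet change of Fcgr3 was 1.77 (SE 0.30). Fcer1g had 13.2, 16.7 and 15.6 CPM in ND-WT, 57.5, 32.2, 24.2, 47.05 and 21.4 CPM in HFD-WT and 30.5, 23.9 and 17.05 CPM in HFD-Acod1-/-. The diet groups did not overlap, and the log2 fold change was 1.30 (SE 0.32). Tyrobp rose from 20.2 ± 4.14 (SD, n = 3) to 46.8 ± 21.05 CPM (SD, n = 5), a log2 fold change of 1.24 (SE 0.35), and Fcgr1 from 2.21 ± 1.02 to 5.41 ± 3.13 CPM, a change of 1.32 (SE 0.55). The groups of Tyrobp, Fcgr1, Fcgr4 (1.17 (SE 0.45)) and Clec4d (1.42 (SE 0.55)) overlapped. Fcgr2b (0.24 (SE 0.31)) and Clec7a (0.47 (SE 0.27)) did not pass the threshold. Single libraries decided 3 of the 6 calls: that of Fcgr1 was lost without ND-WT library 1 or 3 or HFD-WT library 1, 2 or 4, that of Fcgr4 without ND-WT library 1 or 3 or HFD-WT library 2 or 4, and that of Clec4d without ND-WT library 2 or 3. Without HFD-WT library 1, 2 or 4 Clec4d was under the filter and was not tested. Clec7a was called without ND-WT library 2.

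Syk and Clec4n were the 2 called lower in iWAT HFD-WT, and in ND-WT both went with lymph node transcripts. Syk had 83.1, 119 and 77.9 CPM in ND-WT, 43.3, 19.6, 30.3, 32.4 and 27.1 CPM in HFD-WT and 23.6, 14.6 and 17.1 CPM in HFD-Acod1-/-. Clec4n had 3.91, 10.9 and 8.13 CPM in ND-WT, 1.85, 2.45, 1.24, 2.33 and 1.76 CPM in HFD-WT and 3.27, 0.5999 and 0.606 CPM in HFD-Acod1-/-. ND-WT was above every other iWAT library for both genes, with diet changes of -1.58 (SE 0.24) and -1.96 (SE 0.54). The 3 libraries were also those with the B cell, T cell and lymph node stroma markers given above, in which none of the 16 markers was at 0, and all 6 B cell markers were called lower with the diet. Dendritic cell markers (5 genes, none at 0), cells in which Clec4n is known, summed to 44.2 to 72.6 CPM in ND-WT and 20.2 to 35.3 CPM in HFD-WT. The 5 markers did not move alike: 3 were called lower with the diet and 2 were not called. Cd209a went the other way, with a mean of 5.93 CPM in ND-WT and 6.85 CPM in HFD-WT. Syk is the kinase of the B cell receptor too, and relative to 1000 CPM of macrophage markers it stood at 146 ± 18.3 CPM in iWAT ND-WT against 28.9 ± 7.55 in iWAT HFD-WT. HFD-WT library 5, which had 89.8 CPM of B cell markers, had 27.1 CPM of Syk and 1.76 CPM of Clec4n. Its B cell markers were far below the 596 to 886 CPM of ND-WT, so nothing about ND-WT is read from it. As all 3 ND-WT libraries held lymph node transcripts, diet and lymph node content cannot be told apart. With the B cell marker level as a term, added after seeing the values, none of the 10 genes and 70 of all genes were called, and the changes were 0.49 for Fcer1g, 0.62 for Fcgr3, -1.80 for Syk and -1.20 for Clec4n, with adjusted p-values by edgeR of 0.854, 0.723, 0.32 and 0.831. When the fit held a term for the series, 3 of 10 were called, 1 higher and 2 lower. Of all genes, 5750 were called in either direction in that fit, against 7415 in the main fit. Against ND-WT, iWAT HFD-Acod1-/- showed the same 2 genes lower, Syk by -2.33 (SE 0.28) and Clec4n by -2.36 (SE 0.65), and Fcgr3 higher by 0.87 (SE 0.31), where 34.6% of all genes were called in either direction. The call of Fcgr3 was lost without ND-WT library 2 or 3 or HFD-Acod1-/- library 1 or 3.

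Loss of Acod1 gave no call in iWAT. None of the 10 genes, and 0% of all genes, passed edgeR's quasi-likelihood test in either direction, although all 10 fitted changes were negative and 7 of the 10 had an unadjusted p under 0.05, as 2468 of 14801 genes had. The changes ran from -1.40 (SE 0.56) for Fcgr1 to -0.40 (SE 0.57) for Clec4n. Clec7a, the one gene whose groups did not overlap, had 17.1, 8.43, 9.25, 12.9 and 10.8 CPM in HFD-WT and 4.602, 6.16 and 5.21 CPM in HFD-Acod1-/-, a log2 fold change of -1.16 (SE 0.28) (edgeR quasi-likelihood test, adjusted p = 0.137). DESeq2's Wald test called 4 of the 10 genes and 1072 of all genes. Without HFD-Acod1-/- library 3, the only one of its group from the higher-numbered series, edgeR called 1 of 10 and 2664 of all genes. The macrophage markers summed to 693 to 1695 CPM in HFD-WT and 460.1 to 702 CPM in HFD-Acod1-/-.

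Between the depots of ND-WT mice 4 of the 10 genes differed, where 31.7% of all 15034 genes did in either direction. Fcgr3 (1.60 (SE 0.46)) and Clec4d (2.26 (SE 0.84)) were higher in eWAT, and Syk (-1.58 (SE 0.39)) and Clec4n (-2.27 (SE 0.59)) lower, the last 2 again with the lymph node markers of iWAT beside them. The call of Clec4d was lost without eWAT library 1 or iWAT library 2 or 3. Under high-fat diet 8 of 10 were called higher in eWAT of wild type mice, where 10.8% of all genes were. The differences ran from 1.55 for Syk to 2.82 for Clec4d, and no iWAT HFD-WT library reached the eWAT HFD-WT range for any of the 8. Fcgr2b (0.63 (SE 0.26)) and Clec4n (0.41 (SE 0.49)) were not called. In Acod1-/- mice none of the 10 differed between depots by edgeR's quasi-likelihood test, where 3.81% of all genes did, with 4 at an unadjusted p under 0.05 and all 10 fitted differences above 0.

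The diet effect itself was compared between depots as an interaction. It was larger in eWAT for 6 of 10 genes, where 14% of all genes were called in that direction. The log2 fold change exceeded that of iWAT by 3.13 (SE 0.51) for Syk, 2.72 (SE 0.68) for Clec7a, 2.68 (SE 0.77) for Clec4n, 2.42 (SE 0.63) for Tyrobp, 1.91 (SE 0.78) for Fcgr1 and 1.76 (SE 0.46) for Fcer1g. For Syk and Clec4n that difference includes the iWAT side, where they fell together with the lymph node markers. Fcgr3 (0.40 (SE 0.56)), Fcgr2b (0.29 (SE 0.40)), Clec4d (0.55 (SE 1.02)) and Fcgr4 (1.69 (SE 0.74)) did not pass. Fcgr1 lost its call without any 1 of eWAT ND-WT libraries 2 to 4, eWAT HFD-WT libraries 1, 2 and 4, iWAT ND-WT libraries 1 and 2 and iWAT HFD-WT libraries 2, 3 and 5. Fcgr4 gained one without any 1 of eWAT ND-WT library 4, eWAT HFD-WT libraries 3 and 5, eWAT HFD-Acod1-/- libraries 3 and 5, iWAT ND-WT library 3, iWAT HFD-WT library 4 and iWAT HFD-Acod1-/- library 3. The genotype effect did not pass the test of a difference between depots for any of the 10 genes, where 0.00665% of all genes, 1 in 15034, did. The largest differences at an unadjusted p under 0.05 were -2.07 (SE 0.72) for Fcgr4, -1.57 (SE 0.61) for Tyrobp, -1.55 (SE 0.45) for Fcer1g and -1.54 (SE 0.66) for Clec7a, eWAT minus iWAT. Without eWAT HFD-Acod1-/- library 5, 3 of the 10 were called, and without iWAT HFD-Acod1-/- library 3, 1 was. With the replicate number as a block, 6 of the 10 and 484 of all genes were called. Whether libraries of the same number in the 2 depots share a mouse is not stated in the labels.

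Genes that work next to the 10 were counted by lists assembled with earlier results in view. In eWAT, 24.8% of all genes were called higher and 26.9% lower with the diet, and 10.8% were called lower and 9.13% higher by genotype, the shares beside which these counts stand. For the small lists a count says little beyond those shares. The list of receptors that couple to the adaptors also held adaptors, Hcst among them. Of its 11 tested genes, 9 were called higher with the diet in eWAT and 5 lower in HFD-Acod1-/-. Trem2, the lipid-sensing receptor that signals through DAP12, had 6.31 ± 4.66 CPM in eWAT ND-WT, 185 ± 121 CPM in HFD-WT and 15.8 ± 19.6 CPM in HFD-Acod1-/- (SD, n = 4, 5 and 5), changing by 4.87 (SE 0.87) and -3.55 (SE 0.74). Cd300ld (2.83 and -2.08) and Cd300lb (3.26 and -2.53), paired receptors of myeloid cells, went the same way, and so did Hcst, the adaptor DAP10 (1.85 and -1.80). Clec4e, the Mincle receptor that pairs with Clec4d, stayed at 0.384 ± 0.243 CPM in eWAT HFD-WT, under the filter. Of 27 tested genes of downstream signalling, 21 were called higher with the diet, 1 lower, and 21 lower in HFD-Acod1-/-. Lyn, a Src family kinase that phosphorylates the motifs, changed by 1.27 (SE 0.21) and -0.87 (SE 0.19), Card9 by 1.01 (SE 0.43) and -1.38 (SE 0.41), Plcg2 by 1.47 (SE 0.49) and -1.31 (SE 0.45) and Prkcd by 0.75 (SE 0.34) and -1.21 (SE 0.32). The broadly expressed Plcg1 was the 1 called lower with the diet (-0.46 (SE 0.17)) and was not called by genotype (0.42 (SE 0.17)).

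The inhibitory side of the pathway moved too. Of 26 tested inhibitory receptors and phosphatases, 18 were called higher with the diet and 4 lower, and 18 were called lower and 1 higher in HFD-Acod1-/-. Ptpn6 (SHP-1) changed by 2.07 (SE 0.51) and -1.95 (SE 0.47), Inpp5d (SHIP1, the phosphatase that FcγRIIb recruits) by 1.01 (SE 0.40) and -1.58 (SE 0.38), and Sirpa, the receptor for CD47, by 2.65 (SE 0.38) and -1.94 (SE 0.34). Ptpn11 and Pecam1, which many cell types express, were lower with the diet (-0.37 and -0.74). Of 4 other Fc receptors tested in eWAT, 2 were called higher with the diet, Fcrls (0.71 (SE 0.24)) and Pigr (4.30 (SE 0.97)), and 1, Trim21, lower by genotype (-0.39 (SE 0.15)). Fcgrt, the neonatal Fc receptor that recycles IgG and albumin, was abundant and even, at 253 ± 30.6, 251 ± 25.3 and 274 ± 62.01 CPM, with changes of -0.01 (SE 0.16) and 0.13 (SE 0.15) that were not called. Of 8 tested immunoglobulin chains, 6 were called higher with the diet in eWAT, and 1, Ighm, higher by genotype. The list holds chains of several antibody classes, not only IgG. Ighm had 323 ± 40.9 CPM in ND-WT, 581 ± 189 CPM in HFD-WT and 921 ± 131 CPM in HFD-Acod1-/-. Igkc rose with the diet (2.01 (SE 0.59)), and its genotype change of 0.16 (SE 0.52) was not called. Of 9 myeloid transcription factors, 7 were called higher with the diet and 6 lower by genotype. Spi1 had 7.95 ± 2.75, 69.2 ± 34.996 and 13.3 ± 10.5 CPM in the 3 eWAT groups, with changes of 3.12 (SE 0.53) and -2.38 (SE 0.47).

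In iWAT the same lists had calls in both directions, with the lymph node transcripts of ND-WT beside them and 25.9% of all genes called higher and 24.2% lower with the diet. Of 28 downstream genes 23 were called lower with the diet and 1 higher. Of 9 genes on the list of coupled receptors 4 were called higher, Trem2 (4.84) among them, and 4 lower, Hcst (-2.38) among them. Of 25 inhibitory genes 9 were called in each direction, with Ptpn6 at -3.11 and Inpp5d at -1.66. Of 8 other Fc receptors 3 were called higher and 5 lower, and Fcer2a, the low-affinity IgE receptor of B cells, had 106 ± 25.1 CPM in ND-WT against 1.09 ± 1.82 CPM in HFD-WT. Of 8 immunoglobulin chains 7 were called lower, Ighd (-4.92) and Igkc (-3.92) among them, while Ighm was called higher (0.81). Of 9 myeloid transcription factors, 2 were called higher, Mitf (0.53) among them, and 3 lower, Irf8 (-1.73), Irf5 (-0.82) and Runx1 (-0.93). None of these genes was called by genotype in iWAT with edgeR.

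Likeness of pattern was described by Pearson's r of log2 CPM over the 25 libraries, among the 11416 genes that averaged 5 CPM or more. The libraries share depots, diets and series, and r is given without a test. For Fcer1g the 5 most alike genes outside the list were Rab7b (r = 0.99), Cd68 (0.98), Emp3 (0.97), Sdcbp (0.97) and Ms4a7 (0.97), and within the list r was 0.98 with Tyrobp and 0.52 with Syk. For Fcgr2b they included Tm6sf1 (0.88), Csf1r (0.86), Ctsh (0.85) and Ifi211 (0.85), and r with Fcer1g was 0.65.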

How the data were processed

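Libraries were poly(A)-selected and strand-specific, from RNA of whole eWAT or iWAT. The authors trimmed reads with cutadapt, aligned them to the mouse genome (mm10/GRCm38) with STAR and counted reads per Ensembl gene. The program and strand setting of the counting are not given in the sources used here. The deposited files hold, per gene, a raw count and 2 FPKM columns that the authors computed from the counts and the cDNA length, relative to counted or to mapped reads. FPKM recomputed from counts and lengths differed from the deposited FPKM by at most 0.0005. Reads without a feature (6.41 to 11.9%) or ambiguous (1.52 to 2.07%) were left out of library sizes. Ensembl IDs were joined to mouse symbols, which 54723 of 54752 matched.

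The counts were tested as deposited with edgeR 4.0.16 (quasi-likelihood, TMM scaling) in R 4.3.3, in 1 fit per depot with its 3 groups, and in 1 fit of all 25 libraries for depots and interactions. Genes averaging 1 CPM or more were kept, p-values were adjusted by Benjamini-Hochberg over all of them, and genes were called under 0.1, the threshold of the study. CPM values use TMM library sizes over all 25 libraries, and FPKM values in the text are those CPM per kilobase of cDNA. Groups come from the labels. Members, gene lists and named genes were chosen with earlier results of these data known. Besides the 10 members, genes named were the 3 most abundant of each list, a fixed few, and the called genes of lists with up to 5 calls. A few genes that these rules gave are not reported here. Scripts were tested on simulated data. Alternatives were no filter or a stricter one, DESeq2 (1.42.0) size factors and Wald test, limited groups, the series or replicate number as a term, a threshold of 0.05 and the removal of each library. The labels do not say that libraries of a group come from separate mice, so p-values measure the spread between libraries. The figure legends of the study give the size of each RNA-seq group in mice, and these sizes equal the numbers of libraries. No 2 libraries of a group agreed within sampling noise (chi-square per degree of freedom at least 30.9). Precision is limited by the 3 to 5 libraries per group more than by depth, as members had 9 to 18849 reads per library. Promoter sequences are from RefSeq, and positions from GENCODE vM21. Tyrobp and Clec4n were without an entry in the promoter table.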

Additional observations from a re-analysis of the deposited data

Results flagged for a closer look

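In 5 of 40 sets of 4 or 5 libraries (10 genes in 4 groups), 1 library was separated from the rest of its group by more of the group's range than Dixon's 95% limit. By chance about 1 in 20 would be. Library 5 of eWAT HFD-Acod1-/- had 96.9 CPM of Tyrobp, the next 38.04 CPM, and 4.04 CPM of Fcgr4, the next 1.62 CPM. It was the only library of its group from the higher-numbered series. Library 1 of eWAT ND-WT had 47.1 CPM of Syk, the next 28.1 CPM, and 6.57 CPM of Clec4d, the next 1.56 CPM. Library 4 of eWAT HFD-WT had 4.39 CPM of Clec4n, the next 2.35 CPM.

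The diet effect differed between eWAT and iWAT by the interaction test for 6 genes. The excess in eWAT on the log2 scale was 1.76 for Fcer1g, 2.42 for Tyrobp, 1.91 for Fcgr1, 3.13 for Syk, 2.72 for Clec7a and 2.68 for Clec4n. The iWAT side of each rests on the 3 ND-WT libraries with 596 to 886 CPM of B cell markers, whose part was not tested within this interaction.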

How the results depend on the processing

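The direction of all 10 genes held in eWAT for diet and genotype, in the diet interaction and between depots of HFD-WT under every alternative that tested them, and the counts called stayed within 1.5 times, at 7 to 9, 7 to 9, 5 to 7 and 8 to 9 of 10 with single libraries left out. Among genes tested, Fcgr2b and Clec4d were those that lost an eWAT diet or genotype call under any of them. With 1 CPM required in every library, Fcgr4, Clec4d and Clec4n were not tested. Elsewhere counts moved. For eWAT HFD-Acod1-/- against ND-WT, 1 gene called became 0 with no filter, with the series as a term or at 0.05, became 2 by DESeq2's Wald test, and was 0 to 1 with single libraries left out. For the iWAT diet, 8 became 5 with 1 CPM required in every library (7 genes tested) or at 0.05, 3 with the series as a term, 0 with the B cell marker level as a term (added after seeing the data), and 5 to 8 with single libraries left out, the low counts coming without ND-WT library 3 or HFD-WT library 2 or 4. For the iWAT genotype, 0 became 4 by DESeq2's Wald test, 1 in the lower-numbered series alone, and 0 to 1 with single libraries left out. The genotype interaction went from 0 to 1 by DESeq2's Wald test and 0 to 3 with single libraries left out. Between ND-WT depots 4 became 2 with 1 CPM required in every library, and 3 to 4 with single libraries left out. Left-out ranges were 2 to 4 for iWAT HFD-Acod1-/- against ND-WT and 0 to 0 between HFD-Acod1-/- depots. Directions turned in the iWAT diet for Fcgr2b with the series as a term (-0.053) and, with the B cell term, for Fcgr1 (-0.93), Fcgr2b (-0.57) and Clec4d (-1.24). That term nearly coincides with diet. In the iWAT genotype Clec4n turned to 0.75 in libraries labelled 16 weeks (added after seeing the data), a fit with 1 HFD-Acod1-/- library, assumed to vary like the other groups, and ran from -1.66 to 0.0062 with single libraries left out. None of the turned values was called. The cause of these changes was not tested.

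Replicate numbers were not treated as pairing the samples, since not every pair met the limit set: the deviations of same-numbered libraries correlated at over 0.1 in 9 of 13 pairs within eWAT, 3 of 9 within iWAT and 5 of 11 between depots, 3 of 5 for HFD-WT. The labels do not say whether eWAT and iWAT of a number are from 1 mouse. With the replicate block, 8 of 10 genes were called for the eWAT diet, 8 for the eWAT genotype, 0 for eWAT HFD-Acod1-/- against ND-WT, 8 for the iWAT diet, 0 for the iWAT genotype and 6 for the genotype interaction, where 484 of all genes were called with the block and 1 without. Depth limits only Clec4n, Clec4d, Fcgr4 and Fcgr1, which had under 100 reads in some libraries.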
